A study of Homo sapiens with 8 samples.

Results

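The genes described here are 10 genes tied to SMAD signalling: the inhibitory SMADs SMAD6 and SMAD7, the corepressor SKIL, the pseudoreceptor BAMBI, the inhibitors of DNA binding ID1, ID2 and ID3, the ligands BMP2 and BMP4, and the TGF-β-induced matrix gene TGFBI. They were chosen by name, with earlier results of these data known, from 28278 genes in the deposited tables. All 10 passed the filter on low counts that left 15684 genes. They were followed through 8 poly(A) RNA-seq libraries of SK-Hep1, an established human liver cancer cell line, in 4 groups of 2 libraries. The first group was sorafenib-resistant cells given COL6A3 siRNA together with recombinant endotrophin, and the second was resistant cells given COL6A3 siRNA alone. The other two groups received control siRNA, in resistant cells and in sorafenib-sensitive cells. Sorafenib is a kinase inhibitor used against liver cancer, COL6A3 encodes a chain of collagen VI, and endotrophin is the fragment cleaved from the C-terminal end of that chain. All groups carried an siRNA, grew in serum-containing medium and had 1 batch label. The labels name 1 sensitive and 1 resistant line, so resistance and the line that carries it cannot be told apart, and no group with endotrophin but without the COL6A3 siRNA was analysed here. No source used here gives the siRNA sequence, the dose or duration of endotrophin, or whether sorafenib was present at harvest.

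TGF-β, activins and BMPs bind paired type I and type II receptor kinases, which phosphorylate receptor SMADs. These join SMAD4, enter the nucleus and switch target genes on or off. Many of the targets feed back on the pathway: SMAD6 and SMAD7 block receptors and receptor SMADs, BAMBI resembles a type I receptor without a kinase domain, and SKIL, also called SnoN, binds SMADs in the nucleus and represses their targets. ID proteins are classic BMP targets that bind basic helix-loop-helix factors and keep them off DNA. In the liver, TGF-β is known for its part in matrix deposition by stellate cells and BMPs for the control of iron.

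Library totals ran from 30461668 to 44116043 counts. The 2 libraries with the fewest detected genes were resistant control library 1 with 15314 and sensitive control library 2 with 15301, against 16041 to 16594 in the other 6. COL6A3, the target of the siRNA, had 65.9 and 71.3 CPM (the count relative to the TMM-scaled library total) in endotrophin-treated cells, 42.7 and 44.9 CPM in siRNA cells, 135 and 136 CPM in resistant control cells and 17.7 and 19.7 CPM in sensitive control cells. It fell by 1.63 on the log2 scale with the siRNA (SE 0.11, adjusted p = 1.7e-09, edgeR quasi-likelihood test). That test, with Benjamini-Hochberg adjustment over all genes tested, is the test used throughout. COL6A3 rose by 0.65 when endotrophin was added to the siRNA (SE 0.11, adjusted p = 0.000739). Limma, run as an alternative test, did not call that rise. Comparisons of endotrophin added to the siRNA therefore also hold a higher COL6A3 level. Of 12 hepatocyte markers, 4 (ALB, APOA1, TTR and TAT) had 0 counts in all 8 libraries, which allows up to 0.0686 to 0.0972 CPM for each, the value of 3 counts. SERPINA1 and CPS1 were the 2 hepatocyte markers detected in every library, and VIM, a mesenchymal filament gene, stood at 3527 to 4227 CPM. The labels call the 2 libraries of a group biological replicates without naming separate cultures, so the p-values measure the spread between these libraries, which may be technical. In bulk RNA, fewer cells of a type and less RNA per cell cannot be told apart.

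Stretches of promoter are given for BAMBI, SKIL and SMAD6, 3 of the 4 genes that rose when COL6A3 was silenced in resistant cells and the 3 of them with 1 RefSeq window each. BMP4, the other gene that rose, has 3 windows, whose matches are given in words. Each printed stretch is the 250 bases before the RefSeq transcription start (GRCh38.p14, plus strand, written 5′ to 3′). BAMBI lies at chr10:28677521-28682932 and its stretch at chr10:28677271-28677520. SKIL lies at chr3:170357715-170396849 and its stretch at chr3:170357465-170357714. SMAD6 lies at chr15:66702236-66782849 and its stretch at chr15:66701986-66702235. Capitals mark exact matches, on either strand, to 3 motifs. The first is GTCTAGAC, the palindromic SMAD binding element. The next is CAGAC, the core of the box that SMAD3 and SMAD4 bind, which reads as GTCTG on the other strand. The last is the GC-rich core of BMP response elements, GGCGCC.
BAMBI: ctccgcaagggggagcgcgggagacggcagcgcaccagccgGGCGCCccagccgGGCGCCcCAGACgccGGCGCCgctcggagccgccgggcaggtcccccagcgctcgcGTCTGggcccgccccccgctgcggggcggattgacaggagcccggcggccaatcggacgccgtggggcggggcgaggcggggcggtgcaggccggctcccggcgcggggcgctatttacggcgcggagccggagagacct
SKIL: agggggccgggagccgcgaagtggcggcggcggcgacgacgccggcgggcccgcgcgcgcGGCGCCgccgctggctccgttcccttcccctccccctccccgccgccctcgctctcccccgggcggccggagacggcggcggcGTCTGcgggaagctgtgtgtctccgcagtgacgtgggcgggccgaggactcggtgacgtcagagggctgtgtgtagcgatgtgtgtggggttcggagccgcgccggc
SMAD6: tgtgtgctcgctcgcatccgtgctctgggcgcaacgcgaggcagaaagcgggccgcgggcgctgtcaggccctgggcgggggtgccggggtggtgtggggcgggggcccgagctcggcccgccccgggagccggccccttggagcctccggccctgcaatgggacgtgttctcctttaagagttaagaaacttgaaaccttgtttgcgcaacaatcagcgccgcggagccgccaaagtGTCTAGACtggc
BAMBI has 3 matches to the GC-rich core and 2 to the SMAD3 and SMAD4 core, SKIL has 1 of each, and SMAD6 has the palindrome 12 bases before its start. Each of the 3 windows of BMP4 has 1 match to the SMAD3 and SMAD4 core, and 1 of them also has 2 matches to the GC-rich core. The palindrome was found in 71 of 35116 RefSeq promoter windows of 300 bases (0.202%), the SMAD3 and SMAD4 core in 45.3% and the GC-rich core in 19.2%. Of the 13 windows of the genes described here, which cover 9 of the 10 genes, 1 held the palindrome, 8 the SMAD3 and SMAD4 core and 4 the GC-rich core. No base belonged to more than 1 match. A match is a description of these letters and not a bound site.

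Compared per length, as fragments per kilobase of transcript scaled to depth (FPKM), SKIL and BAMBI had the highest group means of the 10 genes in both siRNA groups. SKIL had 7.16 to 15.1 FPKM over the 8 libraries and BAMBI had 3.81 to 14.9 FPKM. In resistant control cells BAMBI and ID1 averaged 4.55 and 4.53 FPKM, and in sensitive control cells ID2, at 6.93 FPKM, stood between SKIL at 7.29 FPKM and BAMBI at 5.92 FPKM. ID1 (1.88 to 5.18 FPKM), ID2 (1.17 to 7.80 FPKM) and SMAD7 (1.99 to 4.58 FPKM) were detected in every library. BMP4 (0.153 to 2.71 FPKM), ID3 (0.119 to 1.43 FPKM), BMP2 (0 to 1.25 FPKM), TGFBI (0 to 0.813 FPKM) and SMAD6 (0 to 0.634 FPKM) stayed at or under 2.71 FPKM, and their calls rest on few reads. The panels of levels by library show these differences, with wide replicate spread for the low genes.

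**Figure D1:**
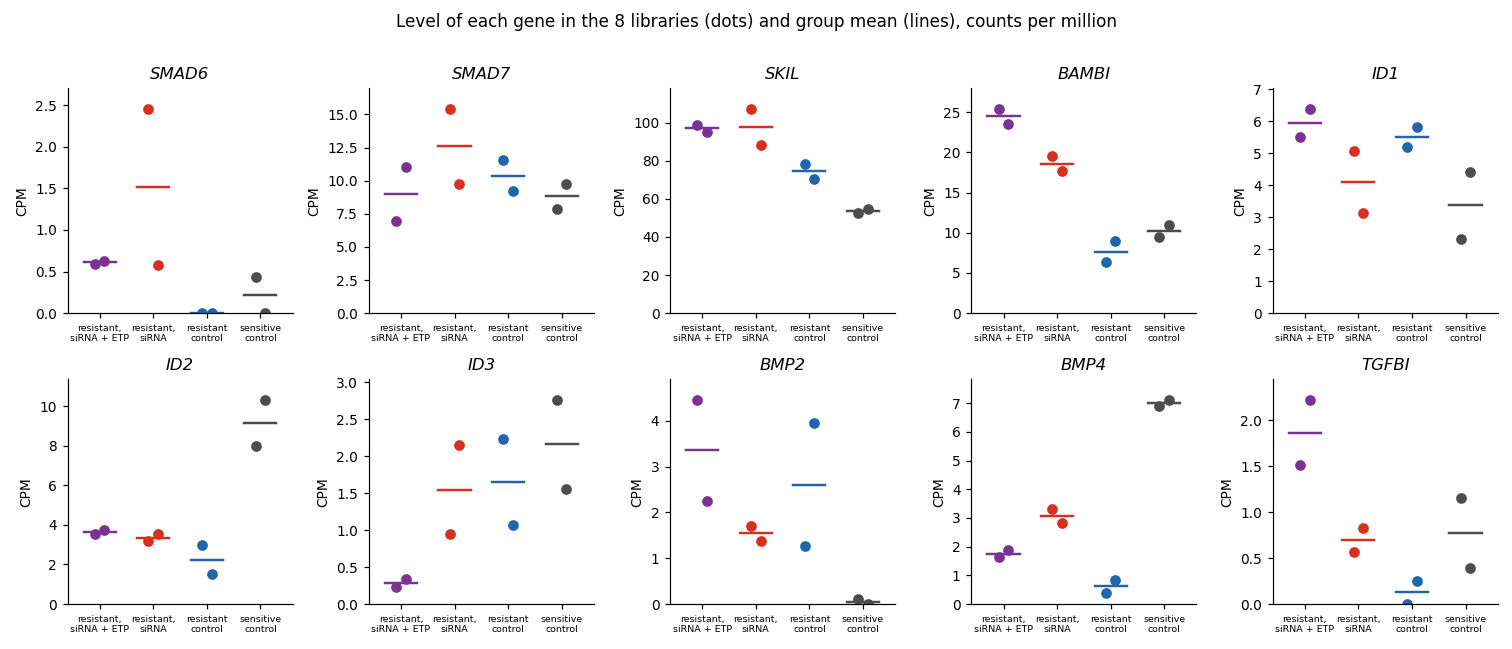
Level of each of the 10 genes in CPM (vertical axis, starting at 0) in each library (dots), with the mean of the 2 libraries of a group (lines), for resistant cells with siRNA and endotrophin (ETP), resistant cells with siRNA, resistant control cells and sensitive control cells. BAMBI stands at 17.6 to 25.4 CPM in the 4 libraries with the COL6A3 siRNA and at 6.35 to 10.9 CPM in the 4 control siRNA libraries, and SKIL at 88.0 to 107 CPM and 52.7 to 78.5 CPM in the same sets.

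When COL6A3 was silenced in resistant cells, 4 of the 10 genes rose (SMAD6, SKIL, BAMBI and BMP4) and 0 fell, where 22.3% of all genes tested were called, 11.4% upward and 10.9% downward. The median log2 fold change of the 10 genes was 0.49, and that of all genes tested was 0.00. The median of the 10 genes was -0.40 in resistant against sensitive control cells and 0.05 for endotrophin added to the siRNA. It was 0.54 with siRNA and endotrophin against resistant control cells. As the 10 genes were chosen with earlier results known, their counts and medians beside those of all genes are descriptions only. Adding endotrophin to the siRNA gave 0 calls among the 10 genes in edgeR and limma on FPKM, where edgeR called 7.77% of all genes tested, 4.41% upward and 3.36% downward. DESeq2 called 0 of the 6 genes for which it gave an adjusted p, and gave none for SMAD6, ID3, BMP2 and TGFBI. In that comparison 1 gene, ID3, had an unadjusted p under 0.05 in edgeR. Endotrophin-treated cells against resistant control cells gave 3 rises (SMAD6, SKIL and BAMBI) and 0 falls, where 19% of all genes tested were called, 10.1% upward and 8.93% downward. This comparison shares the resistant control libraries with the siRNA comparison, so the calls of both rest on the same controls. The comparison of resistant against sensitive control cells uses those libraries too, with opposite sign, so a fall there and a rise with the siRNA are not independent. In resistant against sensitive control cells SKIL and BMP2 rose and ID2 and BMP4 fell, 4 calls in all, where 15.8% of all genes tested were called, 6.52% upward and 9.3% downward.

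The siRNA groups were also set against the sensitive line. In siRNA cells SKIL, BAMBI and BMP2 were called higher and ID2 lower than in sensitive control cells, where 27.6% of all genes tested were called, 13.1% upward and 14.5% downward. With endotrophin as well, SKIL, BAMBI and BMP2 were called higher and ID2, ID3 and BMP4 lower than in sensitive control cells, where 26.8% of all genes tested were called, 13% upward and 13.8% downward. These comparisons share libraries with those above.

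Libraries of the groups compared often did not overlap, among the 10 genes and among all genes alike. For the siRNA against resistant control cells this held for 7 of the 10 genes and for 58.3% of all genes tested. It held for 7 of 10 and 52% with endotrophin added to the siRNA, for 7 of 10 and 57.3% with siRNA and endotrophin against resistant control cells, and for 7 of 10 and 53% in resistant against sensitive control cells. Against sensitive control cells it held for 6 of 10 and 62.4% in siRNA cells and for 9 of 10 and 61.7% with endotrophin. With 2 libraries a group, such separation is near the level of the whole table and is given below only as a description.

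Sums of some cell type marker lists differed between the same groups. The 8 leukocyte and macrophage markers summed to 108.8 to 109.3 CPM in endotrophin-treated cells and 92.4 to 109.6 CPM in siRNA cells. They summed to 104.2 to 113.7 CPM in resistant control cells and 94.4 to 96.6 CPM in sensitive control cells. Of these 8, 4 were tested and 0 were called with the siRNA. CD68, at 92.0 to 112.7 CPM over the 8 libraries, made up most of these sums. The 10 stellate cell and fibroblast markers summed to 196 to 198 CPM in endotrophin-treated cells, 174 to 183 CPM in siRNA cells, 52.6 to 56.1 CPM in resistant control cells and 44.5 to 52.0 CPM in sensitive control cells. Of these 10, 9 were tested and 3 rose with the siRNA. COL1A1, a fibrillar collagen that is also among the TGF-β targets below, made up most of the sum, at 129 and 143 CPM in siRNA cells against 25.3 and 31.1 CPM in resistant control cells. DES stayed at or under 0.114 CPM and DCN at or under 0.399 CPM in all 8 libraries. The 10 endothelial markers summed to 43.0 to 48.9 CPM in endotrophin-treated cells and 41.8 to 55.3 CPM in siRNA cells. The sums were 62.9 to 76.7 CPM in resistant control cells and 25.0 to 28.7 CPM in sensitive control cells. Of the 3 tested, 2 fell with the siRNA. ROBO4, at 22.6 to 67.1 CPM over the 8 libraries, made up most of these sums. EMCN and CLDN5 had 0 counts in all 8 libraries, and PECAM1, CDH5 and KDR stayed at or under 0.229 CPM. The 12 hepatocyte markers summed to 75.0 to 75.7 CPM in endotrophin-treated cells, 62.7 to 67.8 CPM in siRNA cells, 48.0 to 59.3 CPM in resistant control cells and 31.4 to 40.5 CPM in sensitive control cells. Of these 12, 3 were tested, and 1 of them, SERPINA1, rose with the siRNA (log2 fold change 0.58, adjusted p = 0.0263). The part of these lists in the results was not tested.

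**Figure D2:**
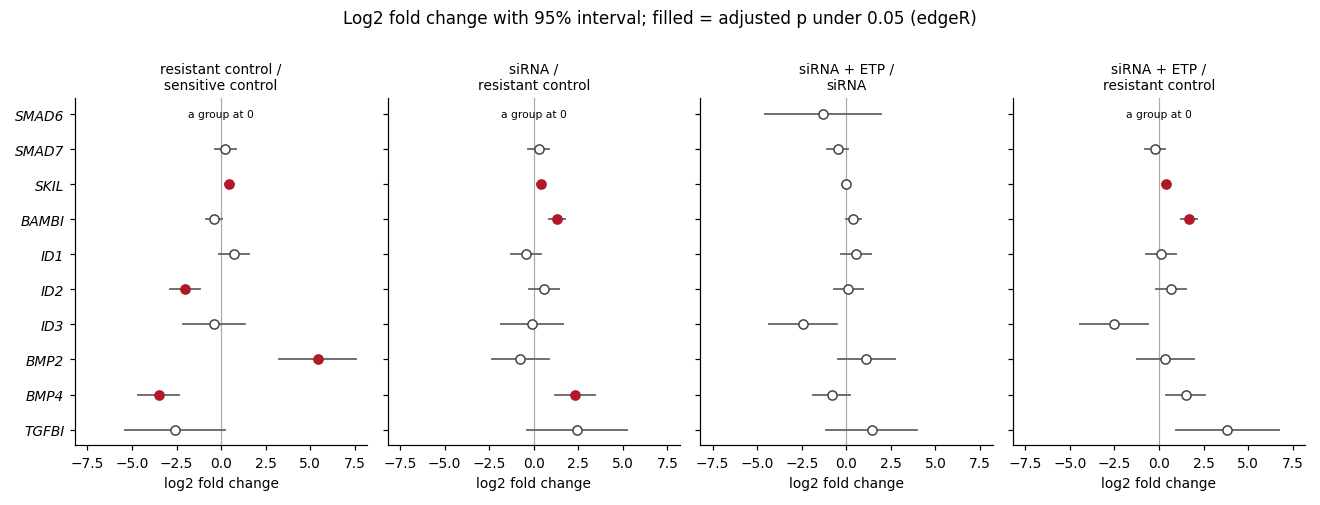
Log2 fold change of each of the 10 genes (horizontal axis) with its 95% interval (bars) in 4 comparisons; filled dots passed an adjusted p of 0.05 in edgeR. SMAD6 has no dot where a group had 0 counts in both libraries. BAMBI stands at 1.28 with the siRNA and at 1.68 with siRNA and endotrophin, both against resistant control cells, and no gene has a filled dot for endotrophin added to the siRNA.

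Of the 10 genes, BAMBI had the smallest adjusted p with the siRNA. It had 25.4 and 23.6 CPM in endotrophin-treated cells, 19.6 and 17.6 CPM in siRNA cells, 6.35 and 8.94 CPM in resistant control cells, and 9.45 and 10.9 CPM in sensitive control cells. Every library with the COL6A3 siRNA lay above every library without it. BAMBI rose by a log2 fold change of 1.28 with the siRNA (SE 0.22, 95% interval 0.83 to 1.73, adjusted p = 0.000135), and by 1.68 with siRNA and endotrophin against resistant control cells (SE 0.22, adjusted p = 6.5e-06). Against sensitive control cells it was higher by 0.87 in siRNA cells (adjusted p = 0.00352) and by 1.27 with endotrophin (adjusted p = 8.8e-05). These 4 calls held under all 19 alternatives. Between endotrophin-treated and siRNA cells the libraries did not overlap, and the log2 fold change of 0.40 missed the threshold (95% interval -0.03 to 0.83, adjusted p = 0.297). In resistant against sensitive control cells the log2 fold change was -0.41, and it missed the threshold (95% interval -0.86 to 0.03, adjusted p = 0.214). In order of mean level the groups ran endotrophin, siRNA, sensitive control, resistant control, and the only neighbours in that order that passed the test were siRNA and sensitive control cells.

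SKIL, which restrains SMAD-driven transcription, was highest with the siRNA. It had 98.7 and 95.3 CPM in endotrophin-treated cells, 107 and 88.0 CPM in siRNA cells, 78.5 and 70.2 CPM in resistant control cells, and 52.7 and 54.8 CPM in sensitive control cells. Both siRNA groups lay above resistant control cells, which lay above sensitive control cells. The log2 fold change was 0.47 in resistant against sensitive control cells (SE 0.11, adjusted p = 0.00640), 0.39 with the siRNA (SE 0.11, adjusted p = 0.0150) and 0.38 with siRNA and endotrophin (SE 0.11, adjusted p = 0.0204), both against resistant control cells. Against sensitive control cells SKIL was higher by 0.86 in siRNA cells and by 0.85 with endotrophin, and these 2 calls held under all 19 alternatives. Endotrophin-treated and siRNA cells overlapped, with a log2 fold change of -0.01 (95% interval -0.24 to 0.23). The calls of the smaller rises depend on single libraries, while the rises kept their direction in every alternative. In the fits below that lost a call with 1 library left out, the SE was larger as well. The rise in resistant cells was not called without resistant control library 1 (0.40, adjusted p = 0.0619). The rise with the siRNA was not called without resistant control library 2 (0.33, adjusted p = 0.102) or siRNA library 1 (0.26, adjusted p = 0.259). The rise with siRNA and endotrophin was not called without resistant control library 2 (0.31, adjusted p = 0.135), endotrophin library 1 (0.36, adjusted p = 0.109) or endotrophin library 2 (0.41, adjusted p = 0.0569). Without both libraries with the fewest detected genes the rise in resistant cells was 0.41 (adjusted p = 0.109), and limma on FPKM called neither of the other rises against resistant control cells.

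SMAD6, which chiefly restrains BMP receptors, was read in few fragments. It had 26 and 22 counts in endotrophin-treated cells, 78 and 21 counts in siRNA cells, 0 and 0 counts in resistant control cells, and 16 and 0 counts in sensitive control cells. All 4 libraries with the COL6A3 siRNA held reads and both resistant control libraries held none. Against a floor of 3 counts in each resistant control library, its CPM was at least 15.8-fold higher in siRNA cells (adjusted p = 0.0167) and at least 6.37-fold higher in endotrophin-treated cells (adjusted p = 0.0450). The first bound rests on siRNA library 1. Without that library it was 6.04-fold and the adjusted p was 0.160, without siRNA library 2 it was 25.6-fold (adjusted p = 0.0111), and without resistant control library 1 or 2 the adjusted p was 0.0600 or 0.0547. The call in endotrophin-treated cells ended without resistant control library 1 (adjusted p = 0.130) or 2 (adjusted p = 0.118), siRNA library 1 (adjusted p = 0.114), or endotrophin library 1 (adjusted p = 0.0666) or 2 (adjusted p = 0.0711). Neither call was made on FPKM. Between endotrophin-treated and siRNA cells the log2 fold change was -1.31, with a 95% interval from -4.55 to 1.94. Against sensitive control cells SMAD6 was called in none of the 3 resistant groups. Without the sensitive library that held 16 counts it was called in siRNA cells, at least 15.6-fold higher (adjusted p = 0.0400), and without the other sensitive library it was called in resistant control cells, at least 4.57-fold lower (adjusted p = 0.0397). The annotation places an intronic transcript of the same strand inside SMAD6, which has no row in the deposited tables.

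SMAD7 (chr18:48919853-48950965, minus strand, GRCh38), which restrains both TGF-β and BMP receptors, passed the test in none of the 6 comparisons. It had 6.93 and 11.01 CPM in endotrophin-treated cells, 15.4 and 9.74 CPM in siRNA cells, 11.5 and 9.25 CPM in resistant control cells, and 7.89 and 9.78 CPM in sensitive control cells. All neighbouring groups overlapped. Its largest differences were a log2 fold change of 0.51 in siRNA against sensitive control cells (95% interval -0.07 to 1.09, adjusted p = 0.193) and of -0.49 in endotrophin-treated against siRNA cells (95% interval -1.07 to 0.09, adjusted p = 0.359).

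Of the ID genes, ID2 (chr2:8682056-8684461) was lower in every resistant group than in the sensitive line. It had 3.54 and 3.74 CPM in endotrophin-treated cells, 3.18 and 3.53 CPM in siRNA cells, 2.98 and 1.52 CPM in resistant control cells, and 7.998 and 10.3 CPM in sensitive control cells. The 6 resistant libraries all lay below the sensitive ones, and both siRNA groups lay above resistant control cells without overlap. ID2 fell by 2.03 on the log2 scale in resistant against sensitive control cells (SE 0.41, 95% interval -2.88 to -1.17, adjusted p = 0.00124), a call that held under all 19 alternatives. Against sensitive control cells its log2 fold change was -1.45 in siRNA cells (adjusted p = 0.00905) and -1.33 with endotrophin (adjusted p = 0.0152), both called. The first of these calls ended without sensitive control library 2 (-1.25, adjusted p = 0.0543) or siRNA library 1 (-1.35, adjusted p = 0.0660), and the second without sensitive control library 2 (-1.13, adjusted p = 0.0882), endotrophin library 1 (-1.29, adjusted p = 0.0819) or endotrophin library 2 (-1.37, adjusted p = 0.0612). With the siRNA its log2 fold change against resistant control cells was 0.58 and missed the threshold (95% interval -0.26 to 1.42, adjusted p = 0.354). An antisense gene, ID2-AS1, overlaps ID2 and strandedness is not given, so reads of ID2 and its antisense partner cannot be told apart. ID2-AS1 was listed with 0 and 0 counts in endotrophin-treated cells, 14 and 0 in siRNA cells, 12 and 0 in resistant control cells and 0 and 44 in sensitive control cells.

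ID3 (chr1:23557926-23559501, minus strand) was low with endotrophin. It had 0.229 and 0.342 CPM (10 and 12 counts) in endotrophin-treated cells, 0.945 and 2.15 CPM in siRNA cells, 2.23 and 1.07 CPM in resistant control cells, and 2.77 and 1.55 CPM in sensitive control cells. Both endotrophin libraries lay below the other 6, which overlapped with each other. ID3 was called lower than in sensitive control cells, with a log2 fold change of -2.91 (SE 0.92, adjusted p = 0.0213), and that call ended without sensitive control library 1 (-2.43, adjusted p = 0.0937), endotrophin library 1 (-2.64, adjusted p = 0.120) or endotrophin library 2 (-3.22, adjusted p = 0.0579). Against siRNA cells the log2 fold change was -2.43 (95% interval -4.32 to -0.54, unadjusted p = 0.0140, adjusted p = 0.115), and against resistant control cells it was -2.53 (95% interval -4.42 to -0.63, adjusted p = 0.0574). Both missed the threshold in edgeR. The difference from resistant control cells was called under 7 of 18 alternatives. DESeq2 called it (adjusted p = 0.0145), and edgeR did so without resistant control library 2, either sensitive control library or siRNA library 1 (adjusted p between 0.0284 and 0.0489). ID1 (chr20:31605289-31606510) passed in none of the 6 comparisons, with 5.51 and 6.39 CPM in endotrophin-treated cells, 5.07 and 3.15 CPM in siRNA cells, 5.18 and 5.81 CPM in resistant control cells, and 2.33 and 4.40 CPM in sensitive control cells. Its smallest adjusted p was 0.142, for endotrophin-treated against sensitive control cells (log2 fold change 0.82, 95% interval -0.01 to 1.66), and without sensitive control library 2 that difference was called (1.35, adjusted p = 0.0321).

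The ligands BMP4 and BMP2 ran in opposite directions between the lines. BMP4 (chr14:53949736-53956891, minus strand) had 1.62 and 1.88 CPM in endotrophin-treated cells, 3.31 and 2.84 CPM in siRNA cells, 0.389 and 0.853 CPM in resistant control cells, and 6.90 and 7.12 CPM in sensitive control cells. The 4 groups did not overlap in any pairing. BMP4 fell by 3.49 on the log2 scale in resistant against sensitive control cells (SE 0.56, 95% interval -4.64 to -2.34, adjusted p = 9.1e-05) and rose by 2.30 with the siRNA (SE 0.54, 95% interval 1.18 to 3.42, adjusted p = 0.00324), and both calls held under all 19 alternatives. Both values rest on the same 2 resistant control libraries, with opposite sign, so they are not independent. Without resistant control library 2, which held 27 of the 39 resistant control counts, these values were -4.15 and 2.99. With siRNA and endotrophin the log2 fold change against resistant control cells was 1.49 and missed the threshold (95% interval 0.38 to 2.60, adjusted p = 0.0559). DESeq2 called that difference (adjusted p = 0.0349), as did edgeR without resistant control library 2 (2.17, adjusted p = 0.0201). Between endotrophin-treated and siRNA cells it was -0.81 (95% interval -1.85 to 0.23, adjusted p = 0.410). In endotrophin-treated against sensitive control cells it was -2.00 and was called (SE 0.51, adjusted p = 0.00488). For siRNA cells the difference from sensitive control cells was -1.19 (adjusted p = 0.0807). It was called in 4 of 19 alternatives, among them without resistant control library 1 (-1.16, adjusted p = 0.0415) or 2 (-1.16, adjusted p = 0.0438).

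BMP2 (chr20:6767686-6780246) had 4.46 and 2.25 CPM in endotrophin-treated cells, 1.70 and 1.38 CPM in siRNA cells, 1.26 and 3.95 CPM in resistant control cells, and 0.110 and 0 CPM (4 and 0 counts) in sensitive control cells. The 6 resistant libraries lay above the sensitive ones and overlapped with each other in part. The log2 fold change against sensitive control cells was 5.41 in resistant control cells (SE 1.03, adjusted p = 0.000654), 4.65 in siRNA cells (SE 1.02, adjusted p = 0.00138) and 5.77 with endotrophin (SE 1.03, adjusted p = 0.000188). The sensitive group held 4 counts in all, in 1 library, so the size of the fold change is loosely fixed. Limma on log2(FPKM + 1) called it in endotrophin-treated cells alone. Without that library the sensitive group was at 0, and BMP2 was at least 26.8-fold higher in resistant control cells, 15.9-fold higher in siRNA cells and 34.6-fold higher with endotrophin. Without sensitive control library 2, the log2 fold changes were 4.53, 3.77 and 4.90 for resistant control, siRNA and endotrophin-treated cells. Without resistant control library 1 or 2 that of resistant control cells was 6.02 or 4.38. Among the 3 resistant groups no BMP2 difference passed the test.

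TGFBI (chr5:136028988-136063818), a secreted matrix protein whose gene is named for its induction by TGF-β, had 1.51 and 2.22 CPM in endotrophin-treated cells, 0.567 and 0.828 CPM in siRNA cells, 0 and 0.253 CPM in resistant control cells, and 1.15 and 0.389 CPM in sensitive control cells. Resistant control cells, with 0 and 8 counts, lay below each other group, and endotrophin-treated cells lay above each. No comparison was called. The log2 fold change with siRNA and endotrophin against resistant control cells was 3.84 (95% interval 0.95 to 6.73, adjusted p = 0.0580), and 10 of 18 alternatives called it, DESeq2 among them (adjusted p = 0.00709). Leaving out resistant control library 2 put the resistant control group at 0. TGFBI was then at least 19.2-fold higher with endotrophin (adjusted p = 0.00983) and at least 7.18-fold higher with the siRNA (adjusted p = 0.0290), and resistant control cells were at least 7.92-fold lower than sensitive control cells (adjusted p = 0.0322).

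Likeness of pattern was measured, as a description with no test, as the root-mean-square difference between centred log2 CPM profiles over the 8 libraries, among 12884 or 12885 other genes with a mean of at least 1 CPM. The nearest to SKIL were CAMSAP2 (0.0648), PIP4K2A (0.0678) and MAP3K2 (0.0789). The nearest to BAMBI were CAMKK1 (0.141), TRIM47 (0.154) and GPC1 (0.171). CAMKK1 averaged 23.8 CPM in endotrophin-treated cells, 18.3 CPM in siRNA cells, 8.28 CPM in resistant control cells and 11.5 CPM in sensitive control cells. Per length it stood lower than BAMBI, at 5.27 against 14.4 FPKM in endotrophin-treated cells and 2.53 against 5.92 FPKM in sensitive control cells. The nearest to BMP4 were OAF (0.209), SEL1L3 (0.306) and APOL1 (0.312), and OAF averaged 1.605, 2.22, 0.541 and 7.13 CPM in the endotrophin, siRNA, resistant control and sensitive control groups. The nearest to ID2 were LINC01465 (0.217), NTN4 (0.245) and B4GALNT1 (0.246), and among the 3 nearest to BMP2 were ADAMTS12 (0.707) and KCNN2 (0.714). For SMAD7 the 3 nearest were VAMP4, FRAT1 and NEK8 (0.134 to 0.152), for ID1 MHENCR, SLC25A16 and DPF1 (0.186 to 0.206), for ID3 HPSE, OXER1 and CAND2 (0.447 to 0.483), for TGFBI KIAA1656, GAREM2 and NINJ1 (0.476 to 0.595), and for SMAD6 NEDD9, LOC100130872 and OLFM2 (0.790 to 0.985). No member of the 10 was among the nearest 3 of another, which SMAD6 and TGFBI could not be, since their means fell under 1 CPM.

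The other genes of the pathway were read from 7 lists of 91 genes, chosen with results of these data already known, of which 69 passed the filter on low counts. With the siRNA 16 rose and 9 fell. For endotrophin added to the siRNA 8 rose and 2 fell, for siRNA and endotrophin against resistant control cells 15 rose and 7 fell, and for resistant against sensitive control cells 11 rose and 12 fell. The shares of all genes tested that were called are those given above for each comparison. Known TGF-β targets, 18 of the 69 genes tested, made up 9 of the 25 calls with the siRNA and 7 of the 10 with endotrophin added. Of all genes tested, 22.3% and 7.77% were called in these comparisons. Because the lists were chosen with results known, these counts are a description, and enrichment was not tested.

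**Figure D3:**
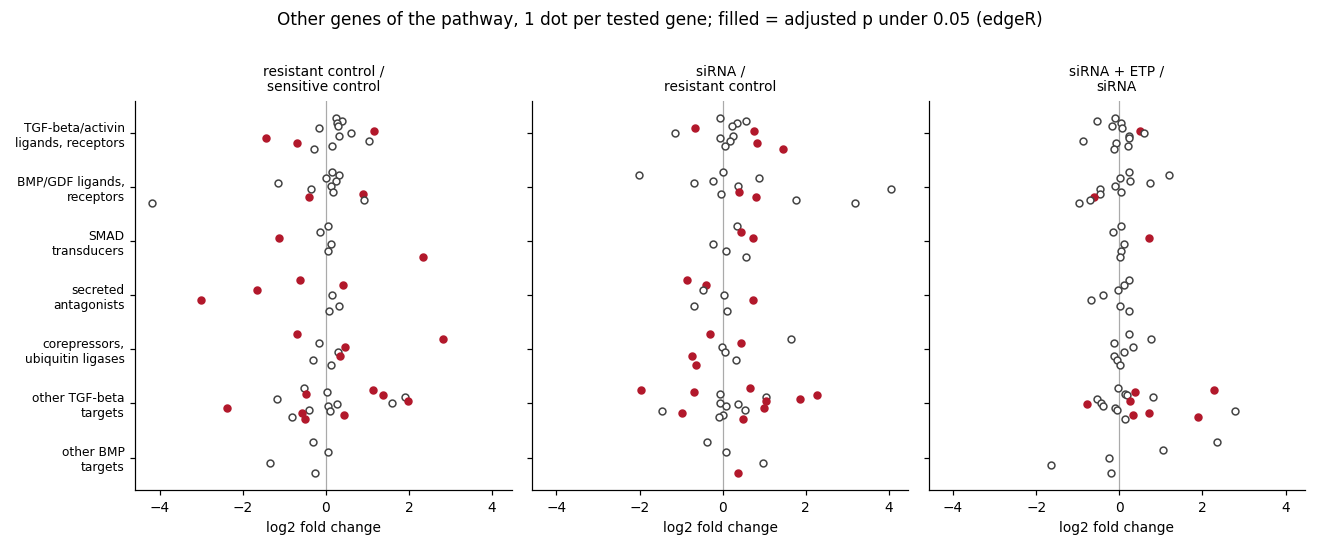
Log2 fold change (horizontal axis, the same in each panel) of the tested genes in the 7 lists (rows), 1 dot per gene, in 3 comparisons; filled dots passed an adjusted p of 0.05 in edgeR. HES1, at 0 in a group, is left out of the first 2 panels. The panel for endotrophin added to the siRNA holds 10 filled dots of 69, and ANGPTL4 and TAGLN are the farthest to the right among them.

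Upstream of the SMADs, TGFBR1, TGFBR3 and INHBA rose with the siRNA. TGFBR3, or betaglycan, a coreceptor that presents TGF-β, had 30.5 and 29.3 CPM in endotrophin-treated cells, 31.5 and 33.3 CPM in siRNA cells, 11.5 and 12.3 CPM in resistant control cells, and 16.4 and 12.5 CPM in sensitive control cells. It rose by a log2 fold change of 1.44 with the siRNA (SE 0.18, adjusted p = 3.8e-06) and by 1.33 with siRNA and endotrophin against resistant control cells. TGFBR1, the type I receptor for TGF-β, rose by 0.84 with the siRNA (SE 0.17, adjusted p = 0.000760). ENG, an endothelial coreceptor, fell by 0.67 with the siRNA. INHBA, the subunit of activin A, had 203 and 195 CPM in endotrophin-treated cells, 144 and 136 CPM in siRNA cells, 85.7 and 81.4 CPM in resistant control cells, and 31.2 and 43.7 CPM in sensitive control cells. Its groups stood in steps without overlap, with a log2 fold change of 1.16 in resistant against sensitive control cells, 0.75 with the siRNA and 0.50 for endotrophin added to the siRNA (SE 0.12 and adjusted p = 0.00855 for the last, which limma on FPKM did not call). Of 13 tested genes in this list, 3 rose and 1 fell with the siRNA, 1 rose with endotrophin added, and 1 rose and 2 fell in resistant against sensitive control cells, where TGFB2 fell by 1.44 and TGFBR1 by 0.69. The TGFBR1 fall was not called without sensitive control library 1 (-0.46) or resistant control library 1 (-0.53), or by limma on FPKM.

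Among the 12 tested genes for other BMP and GDF ligands and their receptors, GDF15 and BMPR2 rose with the siRNA, by 0.80 and 0.39, and none fell. GDF15, a stress-induced cytokine, fell by 0.62 when endotrophin was added, and it was the only gene of this list called there. BMPR2, the type II BMP receptor, was not called with the siRNA by limma on FPKM, and the GDF15 fall was not called by limma on log2(FPKM + 1). In resistant against sensitive control cells GDF11 had a log2 fold change of 0.88 and GDF15 of -0.40, both called. The GDF11 call ended without resistant control library 2 (0.58) and with limma on FPKM. The GDF15 call ended without sensitive control library 2 (-0.22) or resistant control library 1 (-0.42) or 2 (-0.37). Limma on FPKM did not make the GDF15 call either, nor did the fit without the 2 libraries with the fewest detected genes.

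Of the 6 SMADs that carry the signal, SMAD3, which serves TGF-β and activin, moved most often. It had 145 and 137 CPM in endotrophin-treated cells, 81.5 and 89.5 CPM in siRNA cells, 53.5 and 50.03 CPM in resistant control cells, and 105 and 120 CPM in sensitive control cells. The 4 groups did not overlap. SMAD3 fell by 1.12 in resistant against sensitive control cells (SE 0.11, adjusted p = 7.1e-08), rose by 0.72 with the siRNA (SE 0.11, adjusted p = 2.9e-05) and rose again by 0.72 when endotrophin was added (SE 0.10, adjusted p = 0.000113). These calls held under all 19 alternatives. The fall and the first rise share the resistant control libraries, and both rises share the siRNA libraries, so they are not independent. SMAD2 rose by 0.44 with the siRNA, a call not made by limma on FPKM. SMAD9, at 2.66 and 1.29 CPM in resistant control cells against 0.383 and 0.388 CPM in sensitive control cells, was higher in resistant cells by 2.34. That call was lost under 7 of 19 alternatives. It ended without resistant control library 1 (1.75) or sensitive control library 1 (2.34) or 2 (2.35). It also ended with limma on FPKM, the 2 groups alone, and without the 2 libraries with the fewest detected genes.

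**Figure D4:**
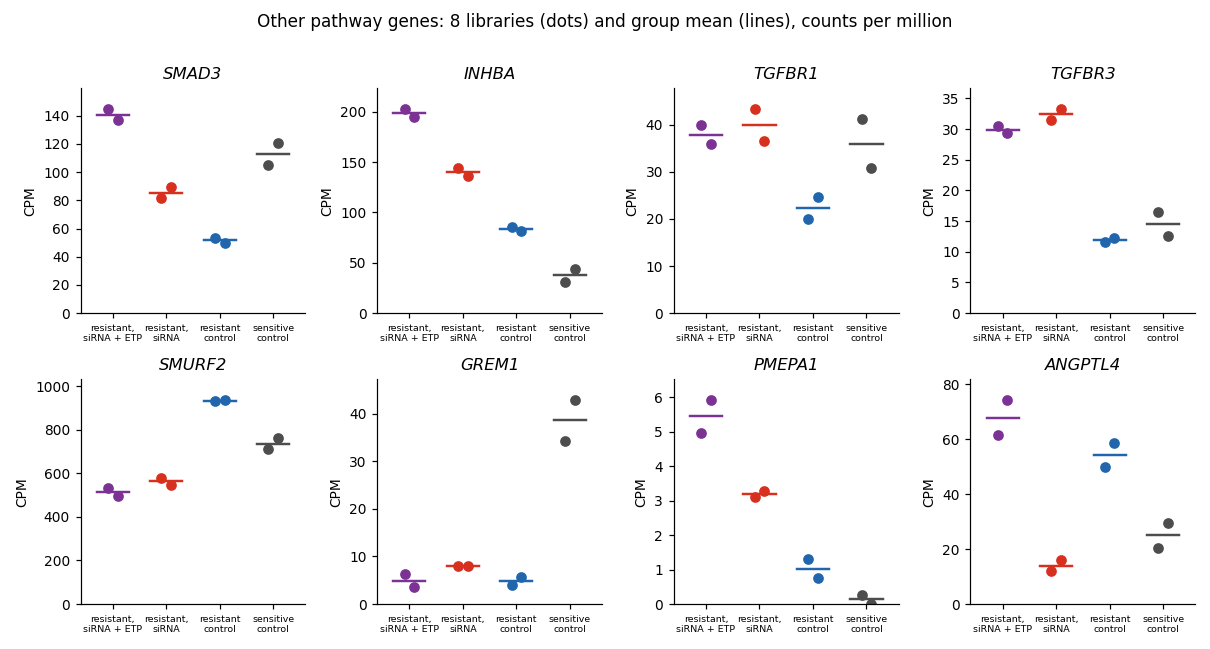
Level in CPM (vertical axis, starting at 0) of 8 other pathway genes in each library (dots), with group means (lines), for resistant cells with siRNA and endotrophin (ETP), resistant cells with siRNA, resistant control cells and sensitive control cells. SMAD3 is lowest in resistant control cells, at 50.03 and 53.5 CPM, and INHBA stands at 195 and 203 CPM in endotrophin-treated cells against 31.2 and 43.7 CPM in sensitive control cells.

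Of 7 tested genes for secreted antagonists, 1 rose and 3 fell in resistant against sensitive control cells. GREM1, or gremlin, which traps BMPs, had 6.24 and 3.62 CPM in endotrophin-treated cells, 7.999 and 7.89 CPM in siRNA cells, 3.95 and 5.62 CPM in resistant control cells, and 34.3 and 42.9 CPM in sensitive control cells. It fell by 3.01 in resistant against sensitive control cells (SE 0.27, adjusted p = 2.3e-08), under all 19 alternatives. With the siRNA GREM1 was higher by 0.73 (adjusted p = 0.0464), a call lost under 8 of 19 alternatives. These were DESeq2, both limma runs, the 2 groups alone, the 2 libraries with the fewest detected genes left out, and single libraries left out. Those single libraries were resistant control library 1 (0.51), siRNA library 1 (0.73) and siRNA library 2 (0.76). FST, or follistatin, which binds activin, had a log2 fold change of -1.65 in resistant against sensitive control cells (adjusted p = 0.0461). That call was lost under 6 of 19 alternatives. It ended without sensitive control library 2 (-1.35) or resistant control library 1 (-1.68) or 2 (-1.60). It also ended without TMM, with limma on log2(FPKM + 0.1) and without the 2 libraries with the fewest detected genes. CHRDL1, a chordin-like BMP antagonist, rose by 0.41 in resistant against sensitive control cells and fell by 0.41 with the siRNA. BMPER, a BMP-binding regulator, fell by 0.63 in resistant against sensitive control cells and by 0.86 with the siRNA. In this list 1 rose and 2 fell with the siRNA, and for endotrophin added to the siRNA GREM1 had a log2 fold change of -0.68 that missed the threshold (adjusted p = 0.118).

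Inside the cell, the ubiquitin ligase SMURF2, which marks SMADs and receptors for degradation, had 534 and 495 CPM in endotrophin-treated cells, 577 and 549 CPM in siRNA cells, 930 and 938 CPM in resistant control cells, and 710 and 763 CPM in sensitive control cells. It rose by 0.34 in resistant against sensitive control cells, fell by 0.73 with the siRNA (SE 0.07, adjusted p = 5.2e-08) and fell by 0.86 with siRNA and endotrophin against resistant control cells. The corepressor TGIF2 fell by 0.65 with the siRNA, a call that ended without resistant control library 2 (-0.45, adjusted p = 0.0876). PMEPA1, a membrane protein that binds receptor SMADs and is itself induced by TGF-β, had 4.96 and 5.93 CPM in endotrophin-treated cells, 3.12 and 3.28 CPM in siRNA cells, 1.30 and 0.758 CPM in resistant control cells, and 0.274 and 0 CPM in sensitive control cells. Its groups stood in steps without overlap. In resistant against sensitive control cells PMEPA1 had a log2 fold change of 2.81 (adjusted p = 0.0228). That call was lost under 6 of 19 alternatives. It ended without sensitive control library 2 (1.89) or resistant control library 1 (2.38), with limma on FPKM and with the 2 groups alone. It also ended without the 2 libraries with the fewest detected genes. Without sensitive control library 1 the sensitive group was at 0. PMEPA1 rose by 2.40 with siRNA and endotrophin against resistant control cells (adjusted p = 0.0209), a call that ended without resistant control library 2 (2.08, adjusted p = 0.0744) or endotrophin library 2 (2.27, adjusted p = 0.0844). NEDD4L, a ubiquitin ligase that acts on SMAD2 and SMAD3, fell by 0.69 in resistant against sensitive control cells (adjusted p = 3.5e-06). The corepressor SKI was called there at 0.45, but not without sensitive control library 1 (0.41) or resistant control library 2 (0.23). Limma on FPKM and the 2 groups alone did not call it either. PPM1A, a SMAD phosphatase, was called with the siRNA at 0.45, but not without resistant control library 1 (0.41) or siRNA library 2 (0.42). It was also not called by limma on FPKM or without the 2 libraries with the fewest detected genes. Of 8 tested genes in this list, 1 rose and 3 fell with the siRNA and 3 rose and 1 fell in resistant against sensitive control cells.

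Known TGF-β targets outside the 10 genes moved in both directions. In resistant against sensitive control cells 4 of 18 tested rose and 4 fell, with log2 fold changes of 1.98 for FN1, or fibronectin, 1.38 for COL1A1 and -2.39 for the collagen cross-linking enzyme LOX. With the siRNA, 6 rose and 3 fell, with COL1A1 up by 2.27 and COL3A1 by 1.87, while the log2 fold change was -1.96 for ANGPTL4 (SE 0.18, adjusted p = 7.4e-08). Both collagens are fibrillar, and ANGPTL4 encodes an inhibitor of lipoprotein lipase. The COL3A1 call (adjusted p = 0.0373) ended without resistant control library 1 (1.83) or 2 (1.95) or siRNA library 1 (1.39). It also ended without the 2 libraries with the fewest detected genes. When endotrophin was added, 6 rose and 1 fell. ANGPTL4 had 61.3 and 74.3 CPM in endotrophin-treated cells, 11.998 and 15.8 CPM in siRNA cells, 49.8 and 58.7 CPM in resistant control cells, and 20.3 and 29.6 CPM in sensitive control cells. The 4 groups did not overlap, with siRNA cells lowest and endotrophin-treated cells highest. With endotrophin added ANGPTL4 rose by 2.28 (SE 0.18, adjusted p = 3.6e-08), and this call and that with the siRNA held under all 19 alternatives. TAGLN, a smooth muscle actin-binding protein, rose by 1.90 there, which limma on log2(FPKM + 0.1) did not call. JUNB fell by 0.77 there, a call that ended when any of the 4 libraries was left out (adjusted p = 0.0645, 0.134, 0.165 and 0.0741 without siRNA libraries 1 and 2 and endotrophin libraries 1 and 2). Of the 5 tested BMP targets outside the 10 genes, RUNX2 alone was called with the siRNA (0.37, adjusted p = 0.0361). That call ended without resistant control library 1 (0.30) or siRNA library 1 (0.27), with limma on FPKM and with the 2 groups alone. The fit without the 2 libraries with the fewest detected genes did not make it either.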

How the data were processed

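RNA of 8 SK-Hep1 libraries was sequenced after poly(A) selection, per the labels' protocols, and the submitters' processing notes name GRCh38. The authors deposited raw read counts per gene, which are whole numbers (1 entry without a name held 0 counts and was left out), and FPKM per gene, which equal the count divided by gene length and library total (relative spread of at most 1.3e-15 over 13505 genes). No source used here states the aligner, counter, annotation or strandedness. Even values made up 72.8% to 77.6% of the counts from 1 to 20 and 49.6% to 50.9% of counts of at least 500, so low counts may hold both reads of a fragment, and counting floors are then 6 counts and not 3. With that floor the bounds for SMAD6 are 7.91-fold in siRNA cells and 3.18-fold in endotrophin-treated cells, both against resistant control cells. Bounds given above with 1 library left out are lower too. For BMP2 they are 13.4-fold in resistant control, 7.93-fold in siRNA and 17.3-fold in endotrophin-treated cells. For TGFBI they are 9.61-fold with endotrophin, 3.59-fold with the siRNA and 3.96-fold lower in resistant control cells. For SMAD6 they are 3.02-fold or 12.8-fold without siRNA library 1 or 2. Against sensitive control cells they are 7.81-fold in siRNA cells and 2.28-fold lower in resistant control cells.

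Counts were tested with edgeR 4.0.16 in R 4.3.3: genes were kept by filterByExpr, scaled by TMM, fitted over all 8 libraries with 1 coefficient per group, and tested by the quasi-likelihood F-test with Benjamini-Hochberg adjustment over 15684 genes, called under 0.05. The prior degrees of freedom were 17.4 and the residual ones 4. CPM is the count over the library total times its TMM factor. All adjusted p-values are from this test unless DESeq2 1.42.0 or limma 3.58.1 (on log2(FPKM + 1) or log2(FPKM + 0.1)) is named. The other alternatives were no TMM, upper-quartile factors, no filter, a stricter filter, the 2 groups alone, a replicate block, halved counts, each library left out, and both libraries with the fewest detected genes left out. Fits were tested on simulated data. The 10 genes and all lists were chosen with earlier results of these data known. Named are the 10 genes in every comparison, COL6A3, up to 2 called genes with the largest rise and up to 2 with the largest fall in each pathway list and each of the siRNA, added endotrophin and resistance comparisons (siRNA with endotrophin against resistant control mainly by counts), and the 3 genes nearest in pattern to each of the 10. Some genes that this rule names are not reported here. Overlaps were read from GENCODE, promoters from RefSeq (GRCh38.p14). Protein sequences were not analysed here.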

Additional observations from a re-analysis of the deposited data

How the results depend on the processing

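The number of the 10 genes called with the siRNA (4 in the report) was 2 with limma on log2(FPKM + 1) and 2 on log2(FPKM + 0.1), and 2 to 4 when 1 library was left out. With siRNA and endotrophin against resistant control cells (3 in the report) it was 6 with DESeq2, 6 without a filter on low counts and 1 to 5 when 1 library was left out. Calls over all genes with DESeq2, limma or no filter are not given here for either comparison. The counts of the 10 genes under those settings are therefore descriptions only. Other pathway genes called for endotrophin added to the siRNA (10 in the report) were 6 with limma on log2(FPKM + 1) and 6 on log2(FPKM + 0.1). Over all genes that comparison had 1218 calls, 494 and 490 with limma on log2(FPKM + 1) and log2(FPKM + 0.1), and 651 to 1637 when 1 library was left out. Over all genes, siRNA and endotrophin against resistant control cells had 2981 calls and 1972 to 3513 when 1 library was left out, and resistant against sensitive control cells had 2480 calls and 1538 without the 2 libraries with the fewest detected genes. Directions that turned belonged to uncalled differences of 7 genes, whose log2 fold changes with 1 library left out follow. ID3 ran between -0.99 and 0.090 in resistant against sensitive control cells, between -0.79 and 0.54 with the siRNA (0.53 without the 2 libraries with the fewest detected genes) and between -1.16 and 0.017 in siRNA against sensitive control cells. SMAD7 ran between -0.080 and 0.59 with the siRNA, between -0.58 and 0.086 with siRNA and endotrophin against resistant control cells, and between -0.35 and 0.32 for that group against sensitive control cells. BMP2 ran between -1.34 and 0.30 with the siRNA and between -0.23 and 1.42 with siRNA and endotrophin against resistant control cells (-0.23 without the 2 libraries with the fewest detected genes). With endotrophin added to the siRNA, SMAD6 ran between -2.01 and 0.070 and SKIL between -0.16 and 0.13. In siRNA against sensitive control cells ID1 ran between -0.10 and 0.82 and TGFBI between -0.72 and 0.84 (0.023 with limma on log2(FPKM + 0.1)). The cause of these changes was not tested. Same-numbered libraries did not deviate together (correlations between -0.027 and 0.036). Whether they were cultured or handled together is not given by the labels. With a replicate block the 10 genes gave 4 calls with the siRNA, 0 with endotrophin added, 3 with both against resistant control cells and 4 in resistant against sensitive control cells, and all genes gave 3618, 1368, 3113 and 2606 calls in the same comparisons. A group left with 1 library is assumed to vary like the others. The stricter filter on low counts left 7 of the 10 genes, without SMAD6, ID3 and TGFBI. Genes under about 3 CPM rest on few reads, and 2 libraries a group leave wide intervals for them.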

Other observations

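Levels of some ligands and SMADs upstream of the 10 genes, picked after their values were seen, follow without a test. Of the TGF-β ligands, TGFB1 averaged 48.2 ± 4.03 FPKM in endotrophin-treated cells, 42.2 ± 0.316 FPKM in siRNA cells, 35.3 ± 7.999 FPKM in resistant control cells and 27.8 ± 6.80 FPKM in sensitive control cells (SD, n = 2 each), while TGFB3 stayed at or under a mean of 0.234 FPKM in every group. TGFB2 averaged 6.67, 5.84 and 6.03 FPKM in the endotrophin, siRNA and resistant control groups against 15.9 FPKM in sensitive control cells. SMAD5, a receptor SMAD of BMP signalling, averaged 19.7, 19.8, 18.5 and 17.3 FPKM in the endotrophin, siRNA, resistant control and sensitive control groups, more than SMAD1 at 3.75, 3.78, 2.94 and 2.76 FPKM and SMAD9 at 0.519, 0.529, 0.357 and 0.0678 FPKM. SMAD4, the partner shared by all receptor SMADs, averaged 6.97, 6.62, 7.66 and 6.90 FPKM in the same order of groups. Of the 91 other pathway genes, 14 had 0 counts in all 8 libraries, among them BMP7, the antagonists CHRD and SOST, and the BMP targets HAMP, which encodes the iron hormone hepcidin, and ID4.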
